A study of Mus musculus with 71 samples.

Results

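The 37 genes described here are microglial and complement genes of the mouse, taken by name from the raw count table of a study of diet, feeding time and memory. All 37 were found among the 57010 genes of the table, and all had enough counts to be tested. The complement genes are C1qa, C1qb and C1qc, and the others encode surface receptors of resting microglia, the TREM2 and Fc receptor signalling chain, lysosomal proteins, transcription factors, TGF-beta and matrix proteins, and a few cytoplasmic or other proteins. The labels called the tissue hippocampus, and over the 71 mice 12 neuronal marker genes summed to 12720 to 17890 CPM (counts scaled to a common library total) and 10 astrocyte genes to 1029 to 5119 CPM, against 229.1 to 1378 CPM for the 37 genes. The 37 genes together held between 0.0226% and 0.0535% of the counts in 70 mice and 0.134% in the remaining mouse.

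The samples came from 71 male C57BL/6J wild-type mice in 12 groups of 6, except for 1 group of 5. NC ad lib mice ate normal chow freely, HFS ad lib mice had free access to a high-fat and high-sucrose diet from weaning, and HFS TRF mice ate the HFS diet but, in the last weeks, only during the active phase of the day (time-restricted feeding). In each diet, home cage mice were collected 3 h (HC zt3) or 15 h (HC zt15) after lights on, and mice trained in an object recognition memory task were collected 1 h (ORM+1 h) or 12 h (ORM+12 h) later, at the matching clock times. RNA was captured from hippocampal lysate with an antibody against phosphorylated ribosomal protein S6, a mark of recently active cells, with no transgene or Cre line restricting the capture to a cell type, and the uncaptured input was not analysed here. The 36 mice of HC zt3 and ORM+1 h belonged to a first experiment and the 35 mice of HC zt15 and ORM+12 h to a second, so the time of day and the experiment cannot be told apart. Mice were caged by diet according to the methods, and the labels did not tie animals to cages, so a difference between diets and a difference between cages cannot be told apart.

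Microglia are the resident macrophages of the brain. They depend on the CSF1 receptor and on TGF-beta, survey neurons through the fractalkine and purine receptors, and are the main source of C1q, the recognition molecule of the classical complement pathway, which tags synapses and debris for removal through the complement receptor that contains Itgam. TREM2 signals through the adaptor TYROBP, and Fc receptors through the gamma chain encoded by Fcer1g. The transcription factor PU.1, encoded by Spi1, binds purine-rich boxes in the promoters of many myeloid genes and is needed for microglia to form.

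Promoters were printed here as examples, of C1qb, C1qc, Ctss and Trem2, which varied together between mice, and of Mertk, of the same list, which did not. RefSeq windows of GRCm38.p6, from 250 bases before to 50 bases after each start site, were matched by symbol for 27 of the 37 genes, of which 4 had more than 1 window. The 250 bases before the start are shown 5′ to 3′ in the direction of transcription, and capitals mark the PU box letters GAGGAA or their reverse complement TTCCTC.
C1qb, chr4:136886201-136886450, minus strand: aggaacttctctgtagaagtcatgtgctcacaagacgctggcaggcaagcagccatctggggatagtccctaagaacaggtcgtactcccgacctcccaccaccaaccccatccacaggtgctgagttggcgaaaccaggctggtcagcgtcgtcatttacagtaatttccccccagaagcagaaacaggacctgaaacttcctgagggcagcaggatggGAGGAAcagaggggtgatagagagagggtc
C1qc, chr4:136892915-136893164, minus strand: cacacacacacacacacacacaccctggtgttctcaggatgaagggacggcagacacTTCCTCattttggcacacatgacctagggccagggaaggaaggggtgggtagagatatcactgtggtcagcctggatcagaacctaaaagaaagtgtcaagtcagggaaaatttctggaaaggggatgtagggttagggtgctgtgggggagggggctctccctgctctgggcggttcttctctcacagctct
Ctss, chr3:95526536-95526785, plus strand: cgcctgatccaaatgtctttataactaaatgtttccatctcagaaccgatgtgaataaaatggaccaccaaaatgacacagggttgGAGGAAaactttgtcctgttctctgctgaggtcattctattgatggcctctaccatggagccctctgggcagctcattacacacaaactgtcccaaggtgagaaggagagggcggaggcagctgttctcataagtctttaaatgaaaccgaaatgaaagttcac
Trem2, chr17:48346151-48346400, plus strand: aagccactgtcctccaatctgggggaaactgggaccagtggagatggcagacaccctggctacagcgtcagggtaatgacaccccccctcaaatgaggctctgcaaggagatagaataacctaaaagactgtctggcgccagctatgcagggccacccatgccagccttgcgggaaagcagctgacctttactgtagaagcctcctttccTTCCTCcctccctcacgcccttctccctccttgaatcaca
Mertk, chr2:128698665-128698914, plus strand: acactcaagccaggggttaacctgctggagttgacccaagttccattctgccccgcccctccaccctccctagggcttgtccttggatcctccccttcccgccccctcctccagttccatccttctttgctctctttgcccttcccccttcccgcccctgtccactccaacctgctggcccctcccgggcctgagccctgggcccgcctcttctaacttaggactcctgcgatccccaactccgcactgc
The box was read at −30 in C1qb, −193 in C1qc, −164 in Ctss and −40 in Trem2, counted from the start site to the first base of the box, and Ctss had another at 1, just past the printed bases. In the Mertk window neither strand held these letters. Over all promoters, the letters GAGGAA on either strand were present in 16 of the 27 matched genes (59.3%) and in 31.3% of 27025 genes with a window. The composite element of an ETS and an IRF factor was present in 1 matched gene, Cd68 (3.7% against 3.16% of all genes), and the letters TATAAA in 4, Ctss, Fcrls, Irf8 and Laptm5 (14.8% against 15.7%), both read on either strand and free to overlap the box. The printed genes do not stand for the whole list, as Cd53, Hpgds and Itgam also held the box and followed the other genes less closely. A match is a description of the letters and was not tested as a binding site.

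Library depth was similar across mice, with 34698914 to 62758570 counts per mouse and a median of 53999489. No pair of libraries was identical (highest correlation of log2 CPM 0.996). CPM values are after TMM scaling of library sizes. Choroid plexus genes such as Ttr varied greatly between mice of the same group, their summed level running from 148.6 to 24810 CPM, and astrocyte genes differed between conditions. Their levels are given beside the genes that moved with them. In such captured tissue samples, read without the input, fewer microglia, less RNA per microglial cell and less microglial RNA captured with the antibody cannot be told apart.

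Replicate 2 of the HFS ad lib HC zt15 group stood apart from all other mice in these genes, so calls it touches are given with and without it. The score used to summarise the genes is the mean over the 37 genes of their z scores of log2 CPM across mice. It was 4.79 in that mouse, while the other 5 mice of its group lay between −0.209 and 0.0961 and the highest of the remaining mice reached 1.13. Of the 37 genes, 34 were more than 2-fold above the mean of the other 5 mice (91.9%, against 4.17% of the 18508 genes with a mean of at least 10 counts), 28 were more than 4-fold above it (1.36% of all genes), and 34 were the highest of all 71 mice (4.48% of all genes). The median fold was 6.73, from 1.16 for Ctsd to 19.3 for Bin2.

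**Figure D1:**
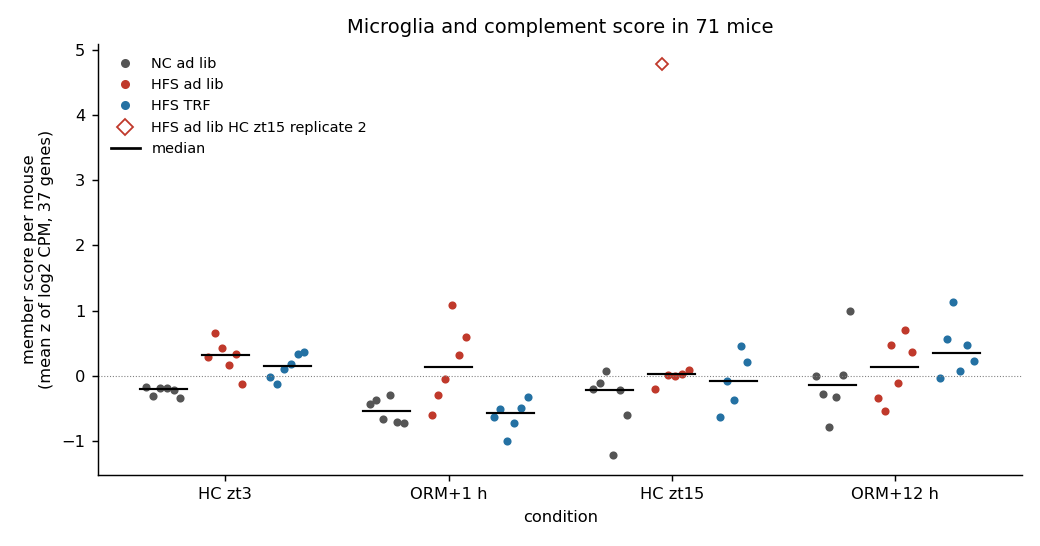
Microglia and complement score of each mouse (vertical axis, mean z score of log2 CPM over 37 genes) by condition (horizontal axis), coloured by diet, with a line at each group median. The open diamond is replicate 2 of HFS ad lib HC zt15 at 4.79, and all other mice lie between −1.22 and 1.13.

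Genes of each role were higher in that mouse. C1qa was at 79.2 CPM against 9.44 to 11.5 in the other 5 mice, C1qb at 103 against 10.7 to 16.4, and C1qc at 83.4 against 11.2 to 12.4. The C1q chains kept their proportions, with a C1qb to C1qa ratio of 1.31 (median of all mice 1.17, range 0.81 to 1.58) and a C1qc to C1qa ratio of 1.05 (median 1.02). Among the receptors, Csf1r, the receptor on which microglia depend for survival, stood at 133 CPM against 17.4 to 22.3, and Cx3cr1, the fractalkine receptor, at 62.9 against 7.43 to 8.95. The purine receptor P2ry12, a marker of resting microglia, was at 17.9 against 2.71 to 4.25. Tmem119, a membrane protein that marks resident microglia, was at 34.1 against 3.38 to 5.36.

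The receptor Trem2 was at 9.85 CPM against 2.18 to 3.25 and its adaptor Tyrobp at 16.8 against 3.47 to 4.92. Aif1, which encodes the actin-binding protein IBA1, was at 16.1 against 1.86 to 2.97. Bin2, a membrane-curving protein of leukocytes, had the highest fold of the list, at 44.9 against 1.52 to 3.14, followed by Ly86, a partner of a Toll-like receptor homologue, at 15.1-fold, Fcrls at 12.3-fold and Itgam at 12.3-fold over the mean of the other 5 mice. The genes below 2-fold were Ctsd (1.16), Mertk (1.26) and Tgfbr1 (1.57), a lysosomal protease, a phagocytic receptor and a TGF-beta receptor that other brain cells also express. Itgb5, an integrin subunit, was at 36.4 CPM, inside the range of the other 70 mice, which reached 45.5.

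**Figure D2:**
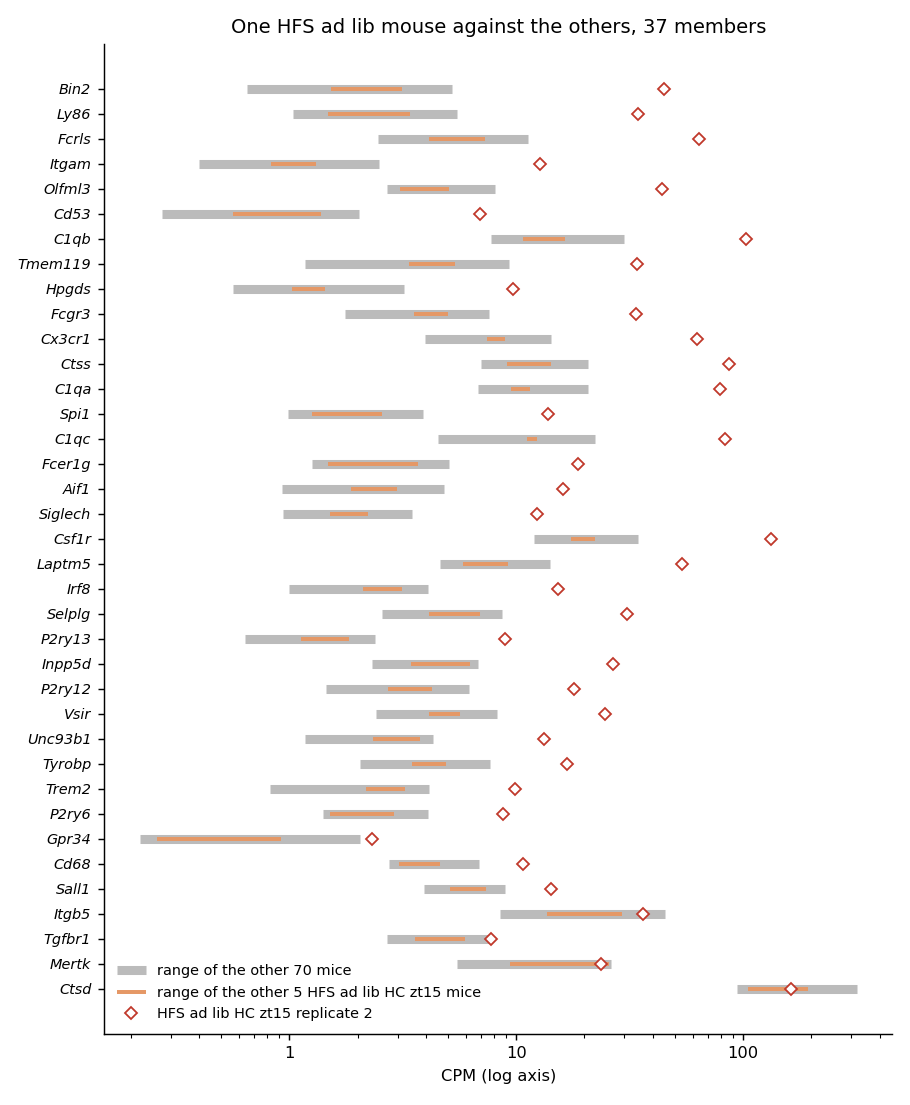
Level of each of the 37 genes (CPM, log axis) in replicate 2 of HFS ad lib HC zt15 (open diamond), with the range of the other 5 mice of its group (orange) and of the other 70 mice (grey). The diamond lies beyond the grey bar for 34 genes and inside it for Itgb5, Mertk and Ctsd.

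Other gene lists were read in the same mouse. Of 26 further microglial genes outside the list, 23 were more than 2-fold above the other 5 mice (median 5.68). Border macrophage genes were higher too, 8 of 8 with a median of 4.79, F13a1 at 11.4-fold and Cbr2 at 10.4-fold, and their summed level was 39.2 CPM against 5.98 to 8.36. The list of inflammatory genes had 7 of 15 above 2-fold (median 1.85), with the cytokine Il1a at 10.6-fold and the feedback inhibitor Socs3 at 8.25-fold, while Il1b was at 0.28-fold. Complement genes other than C1q did not follow: 4 of 22 were above 2-fold, among them the anaphylatoxin receptors C5ar1 (5.56) and C3ar1 (3.12), and the median of the 22 with enough counts was 0.982.

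Endothelial genes were above 2-fold in 6 of 10 (median 2.35). Neuronal, astrocytic and myelin genes had medians of 0.958, 0.721 and 0.925, and the choroid plexus genes were low, 10 of 10 at a fold of at most 0.353, with a sum of 245.6 CPM against 318.1 to 11950. Of the 12 blood leukocyte genes, Cd3e, Cd3g, Nkg7 and Ly6c2 had no count in this mouse or in the other 5. Ccr2 was at 0.038 CPM, 2.66-fold over the other 5 mice. Ltf (7.86-fold), Ngp (5.12), Plac8 (3.94), Cd79a (1.87) and S100a8 (1.84) were also above those mice, all at means under 10 counts. Retnlg had counts in this mouse and none in the other 5. The granulocyte gene S100a9, the only 1 with a mean of at least 10 counts, was at 1.62 CPM, 8.66-fold over the other 5 mice. The leukocyte genes summed to 2.595 CPM against 0.177 to 0.766 in the other 5 mice, and reached 4.46 in NC ad lib HC zt15. Ranked by distance from the highest of the other 70 mice, the top gene was Lcn2, an acute-phase protein, at 17.5 CPM against at most 0.952, and 19 of the 60 top genes were among the 37. The library had 54697752 counts and 21956 detected genes, inside the range of the other mice. What set this mouse apart was not tested.

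Across the remaining 70 mice the genes still varied together. After removing group means, 24 of the 37 correlated above 0.5 with the mean of the others, led by the protease Ctss (0.868), C1qc (0.827), C1qb (0.815), Csf1r (0.80) and Laptm5 (0.797). At the other end were Mertk (−0.117), the transcription factor Sall1 (0.019), Ctsd (0.037), Itgb5 (0.096) and the tetraspanin Cd53 (0.186). Over the 666 pairs of genes the median correlation was 0.322. The highest was that of Itgb5 and Ctsd (0.866). Cx3cr1 and Laptm5 (0.807), C1qc and Tyrobp (0.748) and C1qb and Ctss (0.731) lay within the range of the C1q pairs given below. These correlations are descriptions over libraries that share their depth and tissue makeup. The C1q chains were tested, with r = 0.81 (rho 0.718) for C1qa and C1qb, 0.714 (0.666) for C1qa and C1qc and 0.729 (0.707) for C1qb and C1qc. Each had an adjusted permutation p of 1.5e-05 for r and rho, the smallest that 100000 permutations over 9 relations gave, and without the 2 mice farthest from the median r was 0.729, 0.74 and 0.738. In each experiment r stayed between 0.687 and 0.832. The 16 genes whose promoters held a PU box had a median correlation with the rest of 0.607, and the 11 matched genes without it 0.466, also a description. Those with the box included Cd53 (0.186), Hpgds (0.347) and Itgam (0.397).

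In the GRCm39 annotation the C1q genes lie side by side on chromosome 4, all on the minus strand, with C1qb at 136606009 to 136613511, C1qc at 136616466 to 136620376 and C1qa at 136623223 to 136626161. Csf1r is at 61229714 to 61266535 of chromosome 18, Cx3cr1 at 119877749 to 119898945 of chromosome 9, Tyrobp at 30113170 to 30117010 of chromosome 7 and Mertk at 128540729 to 128645080 of chromosome 2. Counts were summed over the exons of each gene. Fcrls, an Fc receptor-like gene, carries the symbol Fcrl2 in that annotation, at 87156616 to 87181827 of chromosome 3, where the RefSeq window of Fcrls had its single exact match.

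Compared per kilobase of exon, the median level over all mice was highest for Ctsd at 48.6 CPM per kb, followed by C1qa at 6.61, Tyrobp at 6.05 and C1qc at 3.91. The other surface receptors ranged from 0.22 for Gpr34 to 2.73 for Csf1r. In the TREM2 and Fc receptor group Fcer1g, the shared gamma chain, was at 2.27 and Trem2 at 0.482. The lysosomal genes other than Ctsd ranged from 0.443 for Unc93b1, which carries nucleic acid-sensing Toll-like receptors, to 3.28 for Mertk, with the scavenger receptor Cd68 at 2.80. The transcription factors were low, with Spi1 at 0.67, Irf8 at 0.254 and Sall1, which maintains microglial identity, above both. Olfml3, a secreted matrix protein, and Tgfbr1 were at 0.694 and 0.657, and Hpgds, a prostaglandin synthase, was the lowest of all at 0.168. Annotated exon length includes all isoforms, so these levels are approximate.

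C1qb, which encodes the B chain of C1q, is given in full as the gene with the smallest adjusted p between the diets over the 4 conditions. Its lowest, median and highest levels in NC ad lib mice were 10.6, 11.6 and 13.9 CPM at HC zt3, 7.78, 10.1 and 12.5 at ORM+1 h, 9.18, 9.97 and 12.5 at HC zt15, and 7.93, 11.1 and 26.3 at ORM+12 h. In HFS ad lib mice they were 9.86, 16.4 and 17.3 at HC zt3, 10.2, 15.4 and 29.9 at ORM+1 h, 10.7, 12.96 and 103 at HC zt15, and 10.7, 14.8 and 17.7 at ORM+12 h. In HFS TRF mice they were 12.5, 13.7 and 15.1 at HC zt3, 9.20, 9.48 and 11.6 at ORM+1 h, 9.21, 12.6 and 18.4 at HC zt15, and 15.6, 16.3 and 25.8 at ORM+12 h. The HFS ad lib and NC ad lib groups overlapped in each condition, and the medians were higher in HFS ad lib mice in each.

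C1qa and C1qc, the other chains, also had higher medians in HFS ad lib than in NC ad lib mice in each condition. Median C1qa, in the order HC zt3, ORM+1 h, HC zt15 and ORM+12 h, was 10.1, 8.52, 8.66 and 10.2 CPM in NC ad lib mice, 13.3, 11.4, 11.3 and 11.2 in HFS ad lib mice, and 12.0, 8.61, 11.3 and 15.3 in HFS TRF mice. Median C1qc was 10.5, 9.56, 10.1 and 9.65 in NC ad lib mice, 12.6, 11.4, 11.8 and 10.9 in HFS ad lib mice, and 12.4, 8.64, 11.9 and 13.4 in HFS TRF mice. The highest C1qa outside replicate 2 of HFS ad lib HC zt15 was 20.8 and the highest C1qc was 22.3, both in HFS TRF ORM+12 h, while the lowest C1qc was 4.504 in NC ad lib HC zt15.

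The medians of Csf1r, in the same order, were 20.8, 16.99, 20.6 and 19.9 CPM in NC ad lib mice, 21.8, 20.9, 20.3 and 18.9 in HFS ad lib mice, and 21.4, 15.1, 22.2 and 21.3 in HFS TRF mice. Median Cx3cr1 was 8.73, 6.83, 7.04 and 7.54 in NC ad lib mice, 10.4, 8.26, 8.33 and 8.35 in HFS ad lib mice, and 9.78, 6.27, 6.96 and 11.03 in HFS TRF mice. In both receptors the lowest median was HFS TRF at ORM+1 h. Median P2ry12 was 3.496, 2.93, 2.79 and 3.13 in NC ad lib mice, 4.31, 3.53, 3.89 and 3.19 in HFS ad lib mice, and 3.97, 2.73, 3.15 and 3.25 in HFS TRF mice. Median Tmem119 was 3.78, 3.06, 4.14 and 3.46 in NC ad lib mice, 4.09, 4.55, 4.41 and 4.999 in HFS ad lib mice, and 4.93, 2.91, 4.57 and 4.89 in HFS TRF mice. Both also had their lowest HFS TRF median at ORM+1 h, and the order of the medians was not the same in each gene.

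Median Aif1 was 2.49, 1.87, 1.91 and 1.501 in NC ad lib mice, 3.33, 2.38, 2.33 and 2.62 in HFS ad lib mice, and 2.86, 1.78, 2.22 and 3.00 in HFS TRF mice. Median Trem2 was 2.45, 1.87, 2.26 and 2.95 in NC ad lib mice, 3.04, 2.25, 2.75 and 3.05 in HFS ad lib mice, and 2.69, 1.88, 1.95 and 3.08 in HFS TRF mice. Median Tyrobp was 4.09, 3.28, 3.88 and 3.16 in NC ad lib mice, 4.49, 4.64, 4.33 and 4.06 in HFS ad lib mice, and 4.66, 3.08, 4.05 and 5.17 in HFS TRF mice. All these genes were lower at ORM+1 h than at HC zt3 in HFS TRF mice by their medians.

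**Figure D3:**
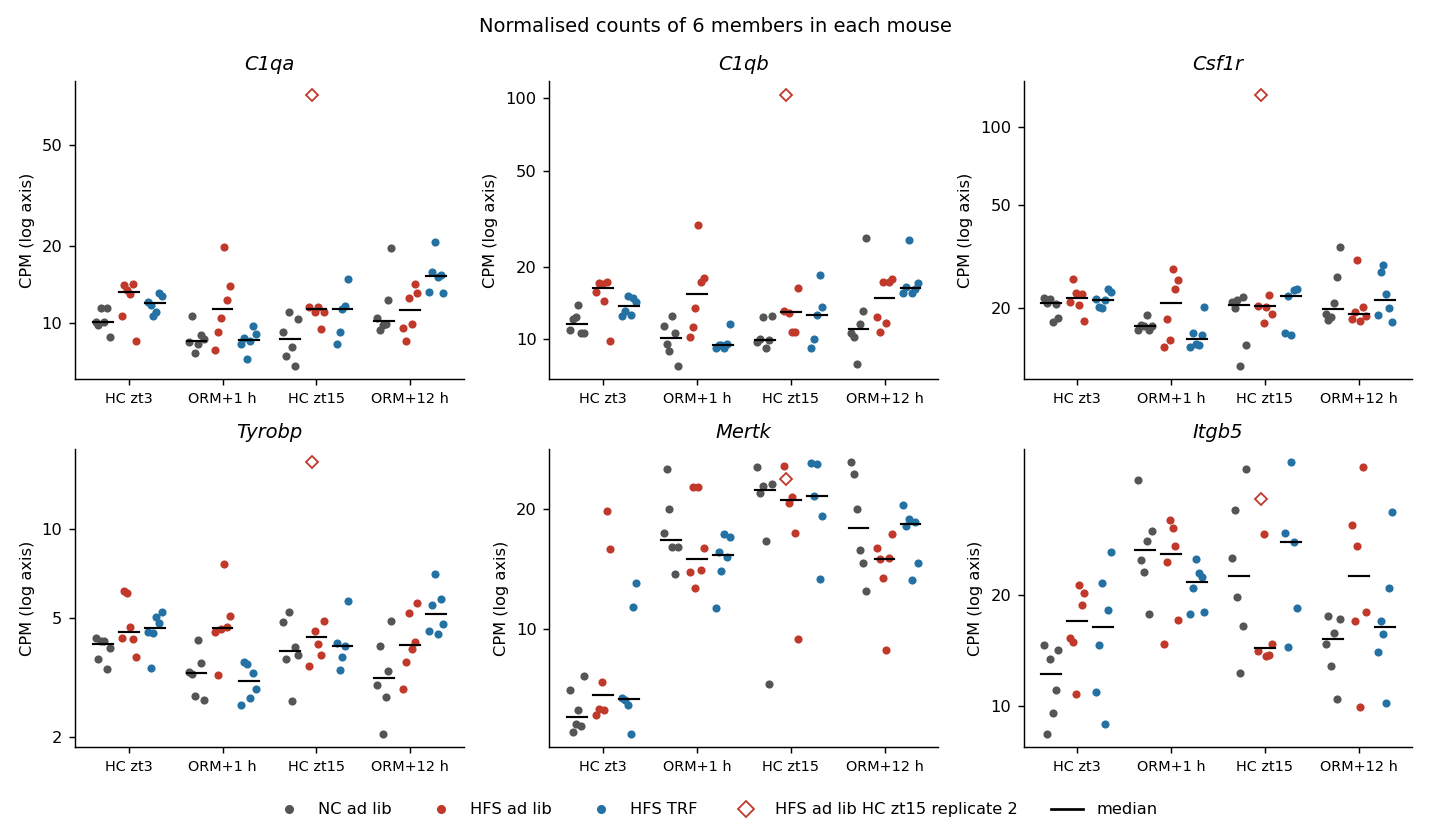
Levels of C1qa, C1qb, Csf1r, Tyrobp, Mertk and Itgb5 (CPM, log axis) in each mouse by condition, coloured by diet, with lines at group medians and replicate 2 of HFS ad lib HC zt15 as an open diamond. That mouse stands above all others in C1qa, C1qb, Csf1r and Tyrobp and inside the range in Mertk and Itgb5, while the medians of Mertk were lowest at HC zt3 in each diet.

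The first question was whether the genes differed 1 h after training. In NC ad lib mice, Mertk and Itgb5 rose and 0 of the 37 fell (quasi-likelihood test of edgeR, p adjusted by Benjamini-Hochberg), that is 5.41% of the genes against 5.73% of the 30141 genes tested, with 1 lower at an unadjusted p under 0.05 and the same count of 2 by DESeq2. Mertk, a receptor tyrosine kinase with which astrocytes and microglia take up dying cells and synapses, had lowest, median and highest levels of 5.50, 6.01 and 7.62 CPM at HC zt3 and 13.7, 16.7 and 25.2 at ORM+1 h. The groups did not overlap, which held for 3.19% of all genes in that direction. The log2 fold change was 1.52 ± 0.25 (SE, n = 6 and 6, edgeR adjusted p = 1.91e-05). Itgb5, a subunit of a vitronectin-binding integrin that activates TGF-beta, went from 8.45, 12.2 and 14.7 CPM to 17.8, 26.4 and 40.7, without overlap, with a log2 fold change of 1.199 ± 0.29 (edgeR adjusted p = 0.00356). The median over the 37 genes was −0.23 (all genes 0.00), and 31 of 37 had negative changes.

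Without replicate 2 of HFS ad lib HC zt15, which belongs to another group but enters the shared estimate of spread, Inpp5d also passed as lower in NC ad lib mice, making 3 of the 37 against 5.87% of all genes. It encodes a lipid phosphatase that restrains TREM2 signalling, and its log2 fold change was −0.58 in both fits, with an SE of 0.25 and adjusted p = 0.171 with all mice and 0.15 and 0.0108 without that mouse. Its levels were 3.83, 5.01 and 5.57 CPM at HC zt3 and 2.95, 3.27 and 3.41 at ORM+1 h, without overlap. Spi1 was the other gene with lower groups that did not overlap, 2.05 to 2.36 against 1.00 to 1.65 CPM, which held for 1.48% of all genes in that direction.

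In HFS TRF mice, Mertk rose 1 h after training (log2 fold change 0.86 ± 0.24, n = 6 and 6, edgeR adjusted p = 0.0329), from 5.46, 6.67 and 13.01 CPM to 11.3, 15.3 and 17.3 CPM with overlap, and most other genes had lower values. That is 2.7% of the 37 against 2.87% of all genes, and the call was lost without any of HC zt3 replicates 1 to 4 or ORM+1 h replicates 2, 4 or 6 (adjusted p up to 0.114). The median change was −0.49 (all genes −0.006), 33 of the 37 changes were negative, and 11 genes had ORM+1 h levels wholly below those of HC zt3, against 1.38% of all genes. These were C1qa, C1qb, C1qc, Itgam, Trem2, Fcrls, Inpp5d, Laptm5, Selplg, Aif1 and Spi1. C1qb, for example, lay between 12.5 and 15.1 CPM at HC zt3 and between 9.20 and 11.6 at ORM+1 h, with a log2 fold change of −0.49 ± 0.30 (edgeR adjusted p = 0.477).

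The test called none of these 11 lower with all 71 mice, and 7 of the 37 were lower at an unadjusted p under 0.05, which 14.4% of all genes reached in either direction. Without replicate 2 of HFS ad lib HC zt15, 24 were (14.5% of all genes), and Inpp5d (−0.63 ± 0.15, edgeR adjusted p = 0.00905) and Spi1 (−0.86 ± 0.22, adjusted p = 0.0118) passed beside Mertk, making 3 of the 37 against 2.96% of all genes. C1qc and Tyrobp, with edgeR adjusted p = 0.0519 and 0.0508, did not. In a fit of the compared groups alone, 17 of the 37 passed, as did 1521 of all 30141 genes. By role, the median changes were −0.51 for C1q and Itgam, −0.52 for surface receptors, −0.49 for TREM2 and Fc receptor signalling, −0.33 for the lysosomal genes and −0.65 for the cytoplasmic and other genes. The score ran from −0.118 to 0.372 at HC zt3 and from −0.994 to −0.324 at ORM+1 h, without overlap.

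In HFS ad lib mice, 0 of the 37 genes passed 1 h after training by edgeR (1.23% of all genes did, and 1.29% without replicate 2 of HFS ad lib HC zt15), with 2 at an unadjusted p under 0.05 and 0 by DESeq2. The median change was −0.02. Mertk had lowest, median and highest levels of 6.06, 6.82 and 19.8 CPM at HC zt3 and 12.7, 14.99 and 22.8 at ORM+1 h, with overlap, and a log2 fold change of 0.73 ± 0.24 (adjusted p = 0.135). The difference between diets in the effect of training was tested as an interaction, and 0 of the 37 passed for HFS ad lib against NC ad lib (smallest adjusted p = 0.725, 1 at an unadjusted p under 0.05, 0 by DESeq2) or for HFS TRF against HFS ad lib (smallest adjusted p = 0.937, 0 at an unadjusted p under 0.05 and 8 without replicate 2 of HFS ad lib HC zt15, 0 by DESeq2).

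Mertk and Itgb5 moved with genes of other cells. Of 10 astrocyte genes, 10 rose at ORM+1 h in NC ad lib mice (median log2 change 1.31) and 9 in HFS TRF mice (1.03), and their summed level in NC ad lib mice went from 1369 to 1904 CPM up to 3131 to 5119 CPM. Over 70 mice, with group means removed, Mertk correlated with the astrocyte score at r = 0.931 (rho 0.931), or 0.917 without the 2 mice farthest from the median, 0.95 within the first experiment and 0.928 within the second (adjusted permutation p = 1.5e-05). With the choroid plexus score Mertk had r = −0.047 (rho −0.045, adjusted permutation p = 0.728).

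Itgb5 correlated with the choroid plexus score at r = 0.77 (rho 0.774, 0.753 without the 2 farthest mice, 0.736 and 0.836 within the experiments, adjusted permutation p = 1.5e-05) and with the astrocyte score at r = 0.29 (rho 0.269, 0.282 without those mice, adjusted permutation p = 0.0316). Ctsd, a lysosomal protease of most cells, correlated with the choroid plexus score at r = 0.834 (rho 0.849, 0.827 without those mice, 0.84 and 0.869 within the experiments, adjusted permutation p = 1.5e-05). These relations were chosen after the values were seen. The part of these cells in the changes of Mertk and Itgb5 was not tested.

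The second question was training at 12 h, against mice of the same clock time. In NC ad lib mice 0 of the 37 genes passed by edgeR (0.209% of all genes did), with 2 at an unadjusted p under 0.05 (9 without replicate 2 of HFS ad lib HC zt15, 7 of them higher, against 16.8% and 16.9% of all genes) and 0 by DESeq2, and the median change was 0.21. In HFS TRF mice 0 passed (2.46% of all genes), with 0 at an unadjusted p under 0.05 and 0 by DESeq2, and the median was 0.32. Without replicate 2 of HFS ad lib HC zt15, 10 were higher at an unadjusted p under 0.05 (21.7% of all genes in either direction) and 0 passed (2.78% of all genes). In HFS ad lib mice 1 passed, Bin2, which was lower (0.179% of all genes), and 28 were lower at an unadjusted p under 0.05 (17% of all genes in either direction). Bin2 was at 1.52 to 3.14 CPM in 5 HC zt15 mice and 44.9 in the other, and its lowest, median and highest levels at ORM+12 h were 1.695, 1.89 and 3.52. The log2 fold change of Bin2 was −2.02 (edgeR adjusted p = 0.0357) with all mice and 0.00 without replicate 2 of HFS ad lib HC zt15. Without that mouse the median over the 37 went from −0.89 to 0.04, and 0 passed (0.0133% of all genes), with 1 at an unadjusted p under 0.05. Tested as a difference of this effect against NC ad lib mice, HFS ad lib mice passed for 0 genes by edgeR (0.106% of all genes), with 28 at an unadjusted p under 0.05 (18.7% of all genes), and for 14 by DESeq2 (among 732 of all genes), in both cases with that mouse included. Without it, 0 passed (0.00995% of all genes) and 2 of the 37 were at an unadjusted p under 0.05 by edgeR. Between HFS TRF and HFS ad lib 0 passed, with 27 at an unadjusted p under 0.05 with all mice (14.1% of all genes) and 2 without that mouse, and 0 by DESeq2.

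HC zt15 was compared with HC zt3 as night against day, which also compares the experiments. In NC ad lib mice Mertk and Itgb5 were higher at HC zt15 and 0 were lower, 5.41% of the 37 against 11.7% of all genes. Mertk had lowest, median and highest levels of 7.26, 22.3 and 25.4 CPM at HC zt15, with a log2 fold change of 1.63 ± 0.25 (edgeR adjusted p = 7.06e-07), and Itgb5 12.3, 22.5 and 43.6 CPM, with 1.08 ± 0.29 (adjusted p = 0.00546). Both groups overlapped those of HC zt3. In HFS TRF mice Mertk alone passed (1.36 ± 0.25, adjusted p = 4.75e-05, 2.7% against 14.2% of all genes), from 5.46, 6.67 and 13.01 CPM at HC zt3 to 13.4, 21.5 and 26.1 at HC zt15, without overlap, which held for 3.1% of all genes in that direction. Astrocyte genes were again higher, 10 of 10 in NC ad lib mice and 9 of 10 in HFS TRF mice, as were 5 of 5 red blood cell genes in both.

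In HFS ad lib mice 15 of the 37 genes passed, all higher at HC zt15 (40.5%, against 10.4% of all genes in either direction), but 1 of these, Mertk, remained without replicate 2 (9.58% of all genes). Fcgr3, an Fc receptor that binds immunoglobulin G, had the smallest adjusted p, with levels of 3.30 to 4.41 CPM at HC zt3 and 3.55 to 4.997 in 5 mice and 33.6 in the other at HC zt15, and its log2 fold change went from 1.27 ± 0.30 (edgeR adjusted p = 0.0021) to 0.18 ± 0.21 (adjusted p = 0.673) without that mouse. Bin2 went from 1.80 ± 0.45 (adjusted p = 0.00376) to −0.22 ± 0.30 (adjusted p = 0.748). The median over the 37 went from 0.71 to −0.18. Mertk was at 0.94 ± 0.24 (adjusted p = 0.00519) with all mice and 0.88 ± 0.25 (adjusted p = 0.0152) without that mouse. No difference between diets in night against day passed for any of the 37 by edgeR with all mice. For HFS ad lib against NC ad lib 22 were at an unadjusted p under 0.05 (9.38% of all genes) and for HFS TRF against HFS ad lib 21 (8.41%), or 3 and 0 without that mouse, and DESeq2 called 0 in each.

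**Figure D4:**
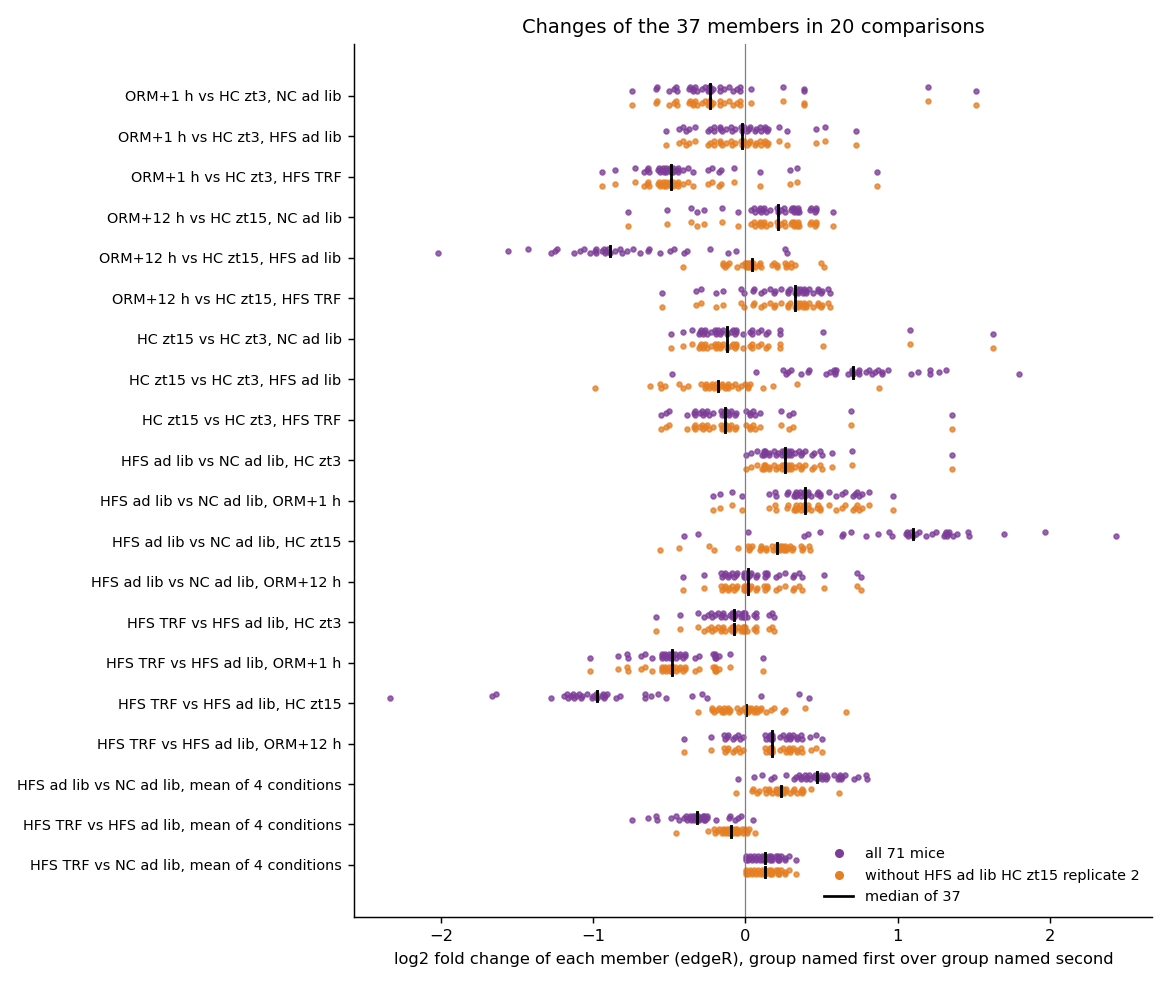
Fitted log2 fold changes (horizontal axis) of the 37 genes in each comparison, with all 71 mice (purple) and without replicate 2 of HFS ad lib HC zt15 (orange), and a line at the median of the 37. The medians move where that mouse's group is compared, for example from 1.10 to 0.21 for HFS ad lib against NC ad lib at HC zt15, and the medians of comparisons without that group stay in place.

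The main question of diet was asked in each condition and over the mean of the 4 conditions. At HC zt3 all 37 genes had positive changes in HFS ad lib against NC ad lib mice, with a median log2 change of 0.26 (all genes 0.001), but 0 passed by edgeR (0% of all genes did), with 2 at an unadjusted p under 0.05 (8.38% of all genes), or 4 without replicate 2 of HFS ad lib HC zt15 (8.39%), and 0 by DESeq2. The largest was Gpr34, a lysophosphatidylserine receptor of microglia, at 0.33, 0.47 and 0.83 CPM in NC ad lib and 0.76, 1.21 and 2.06 CPM in HFS ad lib mice (log2 change 1.36, edgeR adjusted p = 0.589). The score ran from −0.333 to −0.17 in NC ad lib and from −0.123 to 0.65 in HFS ad lib mice, without overlap. It was also taken without 6 genes set aside by choice as expressed by other brain cells too (Ctsd, Mertk, Itgb5, Tgfbr1, Inpp5d and Olfml3). That score ran from −0.345 to −0.079 and from −0.143 to 0.79, with overlap. Of these 6, Inpp5d and Olfml3 did follow the other genes (correlation 0.441 and 0.56), while Sall1, which did not (0.019), was kept. Each single gene overlapped (0 of 37 apart, against 0.236% of all genes in that direction). At ORM+1 h the median was 0.39, 0 genes passed by edgeR (0% of all genes), 8 were at an unadjusted p under 0.05 (9.56% of all genes) and 17 without replicate 2 of HFS ad lib HC zt15 (9.71%), and DESeq2 gave 36 of the 37 no adjusted p. Tmem119 alone had groups that did not overlap, 2.11 to 3.61 against 3.79 to 6.73 CPM, which held for 0.328% of all genes in that direction.

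At HC zt15 12 of the 37 genes passed, all higher in HFS ad lib mice (32.4%, against 0.063% of all genes in either direction, 19 genes in all), and 0 without replicate 2. The 12 were C1qa, C1qb, C1qc, Cx3cr1, Selplg, Fcgr3, Fcrls, Inpp5d, Ctss, Laptm5, Ly86 and Bin2. C1qa had NC ad lib levels of 6.79, 8.66 and 11.03 CPM and HFS ad lib levels of 9.44 to 11.5 in 5 mice and 79.2 in the other, and its log2 fold change went from 1.34 ± 0.27 (edgeR adjusted p = 0.0417) to 0.31 ± 0.16 (adjusted p = 0.522) without that mouse. C1qb went from 1.39 ± 0.30 (adjusted p = 0.0417) to 0.26 ± 0.20 (adjusted p = 0.669), and C1qc from 1.33 ± 0.27 (adjusted p = 0.0417) to 0.31 ± 0.17 (adjusted p = 0.53). Bin2, with the largest change, went from 2.44 ± 0.46 (adjusted p = 0.0417) to 0.42 ± 0.31 (adjusted p = 0.642). The median of the 37 went from 1.10 to 0.21, with 0 at an unadjusted p under 0.05 without that mouse, and with a replicate block on all mice 0 passed. The count also fell to 0 without NC ad lib replicate 1, 4, 5 or 6 and to 1 without replicate 2. At ORM+12 h the median was 0.01 and 0 passed by edgeR (2.27% of all genes, and 2.4% without that mouse), with 2 at an unadjusted p under 0.05 and 0 by DESeq2.

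Averaged over the 4 conditions, 18 of the 37 genes passed, all higher in HFS ad lib than in NC ad lib mice (48.6%, against 2.61% of all genes in either direction) with all mice, and 5 (13.5%, against 2.83%) without replicate 2 of HFS ad lib HC zt15. The 5 were C1qb, Tyrobp, Ctss, Selplg and Gpr34, and 36 of the 37 changes were positive in both fits, with a median of 0.47 with all mice and 0.23 without that mouse (all genes 0.003 with all mice). C1qb was at 0.65 ± 0.15 (edgeR adjusted p = 0.0151) and, without that mouse, 0.37 ± 0.096 (adjusted p = 0.0244). Tyrobp was at 0.47 ± 0.11 (adjusted p = 0.0179) and 0.32 ± 0.087 (adjusted p = 0.031). Selplg, a ligand of selectins that is enriched in microglia, was at 0.53 ± 0.13 (adjusted p = 0.0217) and 0.32 ± 0.091 (adjusted p = 0.0416). The fold of C1qb was 1.57 with all mice and 1.29 without that mouse. The count with all mice also fell to between 9 and 11 when HFS ad lib ORM+1 h replicate 4 or ORM+12 h replicate 6, or NC ad lib HC zt3 replicate 6, ORM+1 h replicate 1 or 6, or ORM+12 h replicate 4, was left out.

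By role, 3 of 4 complement genes, 4 of 10 surface receptors, 4 of 6 TREM2 and Fc receptor genes, 2 of 6 lysosomal genes, 1 of 3 TGF-beta and matrix genes, 4 of 5 cytoplasmic and other genes and 0 of 3 transcription factors passed with all mice. Without that mouse the counts were 1, 2, 1, 1, 0, 0 and 0 in the same order. Ctss, a protease of antigen-presenting cells, was at 0.53 ± 0.13 (edgeR adjusted p = 0.0238) and 0.27 ± 0.078 (adjusted p = 0.0426) without that mouse. C1qa and C1qc kept positive changes of 0.25 and 0.24 without that mouse (adjusted p = 0.0702 and 0.0848) and did not pass. Properdin, encoded by Cfp, passed with all mice (0.64, adjusted p = 0.0298) and had an adjusted p of 0.0502 without that mouse.

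**Figure D5:**
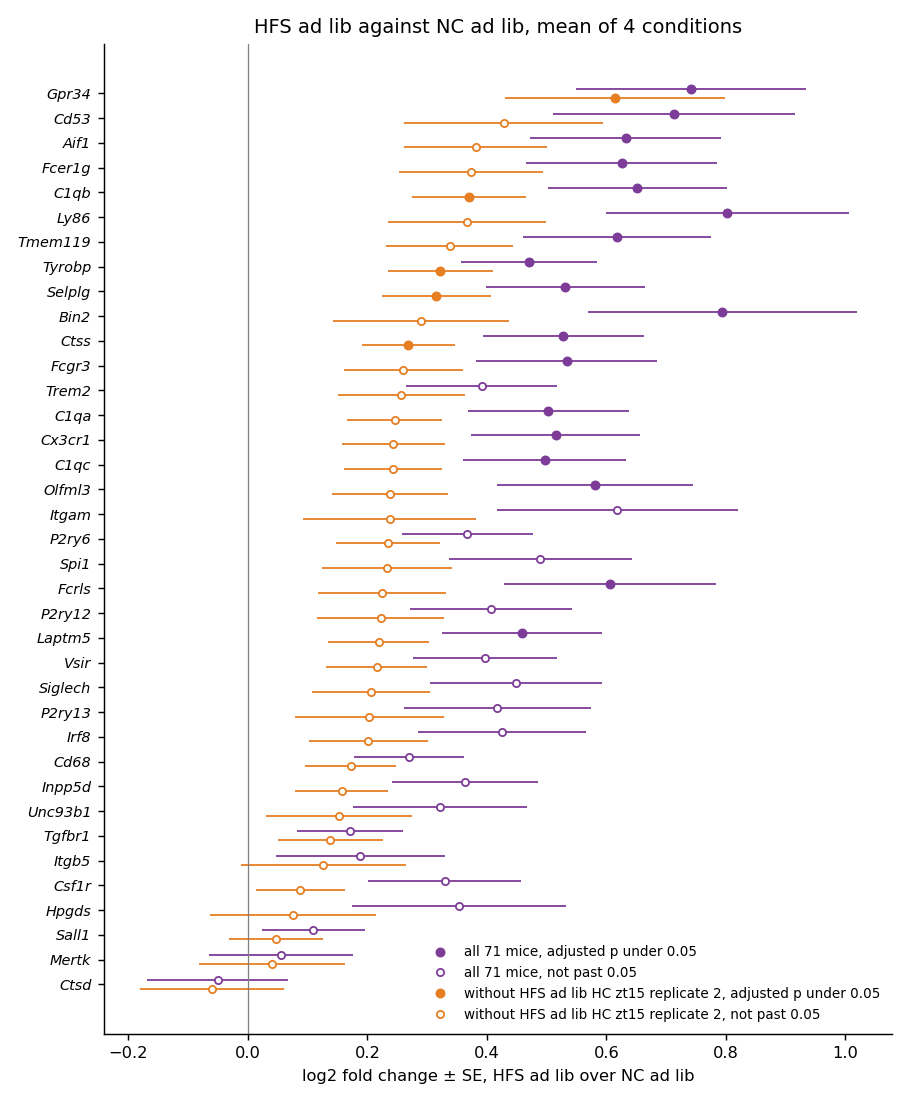
Log2 fold change ± SE of HFS ad lib over NC ad lib, averaged over the 4 conditions, for each of the 37 genes with all 71 mice (purple) and without replicate 2 of HFS ad lib HC zt15 (orange). Filled points passed an adjusted p of 0.05, 18 with all mice and 5 without that mouse, and Ctsd alone lies below 0 in both.

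HFS TRF mice were compared with HFS ad lib mice, which asks whether restricting the feeding time changed these genes. No gene of the 37 passed in any condition by edgeR. The percentages of all genes called were 0% at HC zt3, ORM+1 h and HC zt15 and 0.00664% at ORM+12 h. At an unadjusted p under 0.05 there were 0 genes at HC zt3 (5.89% of all genes), 5 lower at ORM+1 h (6.54%), 30 lower at HC zt15 (15.6%) and 0 at ORM+12 h (12.3%). DESeq2 called 7 at HC zt15, among 84 of all 30141 genes, and 0 in the others. The median at HC zt15 went from −0.98 to 0.00 without replicate 2 of HFS ad lib HC zt15, when 0 passed as well (0.00332% of all genes). At ORM+1 h it was −0.48, with 36 of 37 negative, and it was the same without that mouse, while the count at an unadjusted p under 0.05 went from 5 to 24 (6.62% of all genes). HFS ad lib and HFS TRF levels overlapped for each of the 37 genes in each condition.

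Over the mean of the 4 conditions, HFS TRF against HFS ad lib gave 0 genes by edgeR (0% of all genes), 26 lower at an unadjusted p under 0.05 with all mice (7.94% of all genes) and 1 without that mouse, and 0 by DESeq2, with the median going from −0.32 to −0.09. HFS TRF against NC ad lib, which shares both sets of mice with the comparisons above, gave 37 positive changes with a median of 0.13, and 0 genes passed by edgeR (0.269% of all genes), with 2 at an unadjusted p under 0.05 (14.2% of all genes) and 13, all higher, without replicate 2 of HFS ad lib HC zt15 (14.5%), while DESeq2 gave no adjusted p for 32 of them and called 0 of the others.

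Genes around the list were read from lists of the complement cascade, microglial ligands and inflammatory genes. Of 24 complement genes tested, C4b, which is cleaved downstream of C1q, rose at ORM+1 h in NC ad lib mice (log2 change 1.13 ± 0.26, edgeR adjusted p = 0.0027) and at HC zt15 in NC ad lib (0.94 ± 0.26, adjusted p = 0.00945) and HFS TRF mice (1.09 ± 0.27, adjusted p = 0.00278), comparisons in which the astrocyte genes were higher as well. At HC zt15 in HFS TRF mice Cfp, which encodes properdin, the stabiliser of the alternative pathway, and Serping1, the C1 inhibitor, rose as well (1.39 and 0.85, adjusted p = 0.00368 and 0.0135). The C1q-like neuronal genes C1ql2 and C1ql3 and the complement inhibitor Susd4 rose at ORM+12 h in HFS TRF mice (0.68, 0.53 and 0.39, adjusted p = 0.0125, 0.0162 and 0.0244). C1ql2 and C1ql3 were also higher at HC zt15 than at HC zt3 in NC ad lib mice (0.38 and 0.39, adjusted p = 0.0496 and 0.0105), and C1ql2 in HFS ad lib mice (0.41 with all mice and 0.48 without replicate 2 of HFS ad lib HC zt15, adjusted p = 0.0342 and 0.0144).

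Among 17 ligands and partners, Axl, a receptor of the same family as Mertk, rose with it at ORM+1 h in NC ad lib (1.41, edgeR adjusted p = 9.69e-05) and HFS TRF mice (0.98, adjusted p = 0.0157). Tyro3, the neuronal member of that family, fell at HC zt15 in HFS TRF mice and in NC ad lib mice (−0.70 and −0.44, adjusted p = 0.000108 and 0.0147). Under the HFS ad lib diet Tyro3 was lower at HC zt15 as well when every mouse was counted (−0.38, edgeR adjusted p = 0.0444). That call was lost when replicate 2 of HFS ad lib HC zt15 was set aside (−0.29, adjusted p = 0.152). Tgfb1, the cytokine that maintains the microglial state, was higher in HFS ad lib than in NC ad lib mice over the 4 conditions (0.46 ± 0.12, adjusted p = 0.0214) and without replicate 2 of HFS ad lib HC zt15 (0.36 ± 0.10, adjusted p = 0.0364). So was the chemokine gene Cxcl10 (1.37 and 1.43, adjusted p = 0.0327 and 0.0243), at a mean of 25.5 counts per mouse. Cxcl10 was also higher in HFS TRF than in NC ad lib mice over the 4 conditions (1.62, adjusted p = 0.0416, and 0.0383 without that mouse). Of the 21 inflammatory genes tested, the only other to pass for HFS ad lib against NC ad lib over the 4 conditions was the cytokine gene Il6 (adjusted p = 0.041 and 0.0381). Il6 had a mean of 0.507 counts per mouse and a median of 0, so its change rests on few reads. At ORM+1 h, Ptgs2, Myd88 and Il18 of that list rose in NC ad lib mice (0.44, 0.47 and 1.08, adjusted p = 0.0349, 0.00968 and 0.000188). Ptgs2 and Il18 rose in HFS TRF mice too (0.55 and 0.83, adjusted p = 0.0095 and 0.0101). Myd88 passed there only without replicate 2 of HFS ad lib HC zt15 (0.37, adjusted p = 0.0879 with all mice and 0.0436 without it). Further genes of the list passed in other comparisons.

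Of the 26 further microglial genes, 3 were higher in HFS ad lib mice over the 4 conditions with all mice (Ikzf1, Slco2b1 and Vav1) and 0 without that mouse, with medians of 0.42 and 0.21. The medians of the 37 genes in the same comparison were 0.47 and 0.23. Border macrophage genes gave 0 of 10 in that comparison, with medians of 0.06 and −0.12, and the genes of disease-associated microglia 0 of 20, with medians of 0.08 in both fits.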

How the data were processed

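Hippocampal RNA bound to phosphorylated ribosomal protein S6 was sequenced from 71 mice, paired-end and stranded according to the methods. The deposited table holds raw counts per Ensembl gene, for which the authors' processing notes list Trim Galore 0.6.7, cutadapt 3.4, HISAT2 2.2.0 and featureCounts (Subread 2.0.3) on GRCm39 (mm9 is listed too). No molecular identifiers are given in the sources used here. Depth was 34698914 to 62758570 counts per mouse.

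From these counts, genes with at least 10 counts in total were kept, libraries were scaled by TMM and all 12 groups were fitted together with edgeR 4.0.16 (R 4.3.3), the quasi-likelihood test giving Benjamini-Hochberg adjusted p-values over 30141 genes at a threshold of 0.05. Each fit was repeated without replicate 2 of HFS ad lib HC zt15. DESeq2 1.42.0, other filters and scalings, single replicates left out and a replicate block were alternatives. The log2 CPM used a prior count of 2. The p-values of these fits set a difference against the spread between mice within the 12 groups, and do not cover differences between cages. Same-numbered mice deviated together in all 6 pairs only for HFS ad lib against NC ad lib at HC zt15 (correlation 0.161 to 0.596), where the block is printed. The 37 genes and the other lists were chosen with earlier results of these data known. Values in every group were given for 10 genes picked by role, and beyond these at most 3 genes per direction with the smallest adjusted p in a comparison. The scripts were tested on simulated data. Values of some single genes are not reported here.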

Additional observations from a re-analysis of the deposited data

Results flagged for a closer look

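Within groups, 132 sets of values (the score and 10 genes in 12 groups) were searched for a mouse far from the others of its group by Dixon's criterion, which chance meets in about 1 in 20 groups, and 23 met it. Of these, 11 were in replicate 2 of HFS ad lib HC zt15, which was the highest of its group with a score of 4.79, C1qa at 79.2 CPM, C1qb at 103, C1qc at 83.4, Csf1r at 133, Cx3cr1 at 62.9, P2ry12 at 17.9, Tmem119 at 34.1, Aif1 at 16.1, Trem2 at 9.85 and Tyrobp at 16.8 CPM.

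The other 12 values were closer to their groups. In NC ad lib mice, Csf1r was high at 18.8 CPM in ORM+1 h replicate 4 and C1qc was low at 4.504 CPM in HC zt15 replicate 4. C1qa, C1qb and C1qc were high together in NC ad lib ORM+12 h replicate 6, at 19.7, 26.3 and 17.8 CPM. C1qa, C1qb, C1qc and Tmem119 were high together in HFS TRF ORM+12 h replicate 3, at 20.8, 25.8, 22.3 and 9.25 CPM. Csf1r was high at 30.6 CPM in HFS ad lib ORM+12 h replicate 3. In HFS TRF ORM+1 h replicate 6, C1qb was at 11.6 and Csf1r at 20.1 CPM, the highest of that group.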

How the results depend on the processing

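Counts below are of the 37 genes called. Fitting the compared groups alone gave 4 at ORM+1 h in NC ad lib mice, 17 at ORM+1 h in HFS TRF mice, 0 at ORM+12 h in HFS ad lib mice, 0 for HC zt15 against HC zt3 in HFS ad lib mice, 2 for it in HFS TRF mice, 0 for HFS ad lib against NC ad lib at HC zt15 and 2 over the 4 conditions. DESeq2 gave 13 for ORM+12 h in the HFS ad lib groups, 7 for HFS TRF against HFS ad lib at HC zt15 and 14 for HFS ad lib minus NC ad lib in the ORM+12 h effect, which was 1 with edgeR's own filter. Re-estimated without replicate 2 of HFS ad lib HC zt15, the counts were 3 at ORM+1 h in HFS TRF mice, 0 at ORM+12 h and 1 at HC zt15 against HC zt3 in HFS ad lib mice, and 0 at HC zt15 and 5 over the 4 conditions for HFS ad lib against NC ad lib. Bin2 reversed to −0.22 for HC zt15 against HC zt3 in HFS ad lib mice without that mouse.

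With a replicate block the counts were 0 for ORM+12 h in HFS ad lib mice, 6 for HC zt15 against HC zt3 in HFS ad lib mice and 0 for HFS ad lib against NC ad lib at HC zt15. Outside HFS ad lib against NC ad lib at HC zt15, same-numbered mice did not deviate together in every pair (median correlation −0.368 to 0.343 by comparison). In the comparisons not named here the block moved no count by over 1.5 times. Leaving out a single mouse gave 0 to 1 at ORM+1 h in HFS ad lib mice, 0 to 1 at ORM+1 h in HFS TRF mice (0 without HC zt3 replicates 1 to 4 or ORM+1 h replicates 2, 4 or 6), 0 to 18 at ORM+12 h in HFS ad lib mice (18 without HC zt15 replicate 6, 12 without replicate 3 and 5 without replicate 1), 1 to 20 for HC zt15 against HC zt3 in HFS ad lib mice (8 and 7 without HC zt3 replicates 1 and 6) and 1 to 2 for it in HFS TRF mice. For HFS ad lib against NC ad lib it gave 0 to 19 at HC zt15 (0 also without NC ad lib replicates 1, 4, 5 or 6, and 1 without 2), 0 to 1 at ORM+12 h and 5 to 25 over the 4 conditions. It gave 0 to 2 for HFS TRF against HFS ad lib at HC zt15 and 0 to 15 for HFS ad lib minus NC ad lib in the ORM+12 h effect (15 without HFS ad lib HC zt15 replicate 3 and 8 without ORM+12 h replicate 4). The cause was not tested. Depth limited the least counted of the 37 genes, Gpr34 and Cd53, which had as few as 12 and 16 counts in a mouse. DESeq2 gave no adjusted p for 36 of the 37 genes for HFS ad lib against NC ad lib at ORM+1 h and for 15 over the 4 conditions.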
